A study of Mus musculus with 6 samples.

Results

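The splicing events examined here lay in 6 nuclear genes for mitochondrial proteins, Mff, Tmem11, Nfu1, Uqcc1, Taz (tafazzin, on chromosome X) and Tomm6. They were chosen by their presence in the deposited lists, so that being listed is what selected them and is no finding. An interval was counted when it lay within the locus of a gene and matched its exon edges. The genes held 8 distinct events of 643 in all. P19 cells, a mouse embryonal carcinoma line with stem cell properties, were sequenced in 3 samples after SFPQ knockdown by small interfering RNA and in 3 control samples. The labels give no other treatment, no strain and no separate culture for each sample, and the cells are a tumour line and not a normal tissue. Sfpq is a nuclear protein that binds RNA and takes part in splicing. Differential splicing between the knockdown and the control was deposited as 3 lists, called lists 1, 2 and 3 here after their replicate numbers.

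Each list gave a position and an event type, and no read count, inclusion level, direction or p-value. Sequencing depth is therefore unknown, and whether a form was used more or less after the knockdown cannot be read. Lists 1, 2 and 3 held 270, 264 and 257 distinct events. Sfpq had 0 listed events, and its level in the samples cannot be checked from positions.

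Mitochondria are built almost wholly from proteins encoded in the nucleus, which are made in the cytosol and brought in through the translocases of the outer and inner membranes. The organelle divides when receptors such as Mff recruit the dynamin Dnm1l to its surface, and the folds of its inner membrane (cristae) depend on shaping proteins and on the lipid cardiolipin. The inner membrane carries the respiratory chain, whose complexes need dedicated assembly factors and iron-sulfur clusters. Alternative splicing of such genes can change a protein by whole exons, by single codons, or by a stop codon placed early in the message. Messages with a stop far upstream of the last exon junction are the usual substrates of nonsense-mediated decay.

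All 6 genes had a listed event, against a background of 2.81% of multi-exon protein-coding genes (579 of 20596). Of the 6 genes, 5 stood in 2 or 3 lists, by the same or by different events, against 0.704% of those genes (145 of 20596). The same event recurred in 4 of them, and Nfu1 stood in lists 1 and 3 by different events. Nothing is read from either count, because the genes were picked for being listed. By event, 4 of the 8 were found in 2 or 3 lists (50%, 95% Wilson interval 21.5% to 78.5%, counting error only), against 19.6% of all listed events (126 of 643). Nothing is read from this share or its interval either, because the events were picked from these same lists. The Tmem11 exon was in all 3 lists, as were 22 of 643 events (3.42%). The Mff exon and the Taz shift were in lists 1 and 3, and the Uqcc1 shift was in lists 2 and 3. The Tomm6 shift was in list 3 only. In Nfu1 list 1 held a pair of neighbouring events and list 3 another exon. List 1 held 5 of the events in 4 of the genes (1.85% of its events). List 2 held 2 in 2 genes (0.758%) and list 3 held 6 in 6 genes (2.335%). Differences between the lists were not tested. Without list 1, 2 events would stand in more than 1 list, without list 2 it would be 3, and without list 3 it would be 1.

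**Figure D1:**
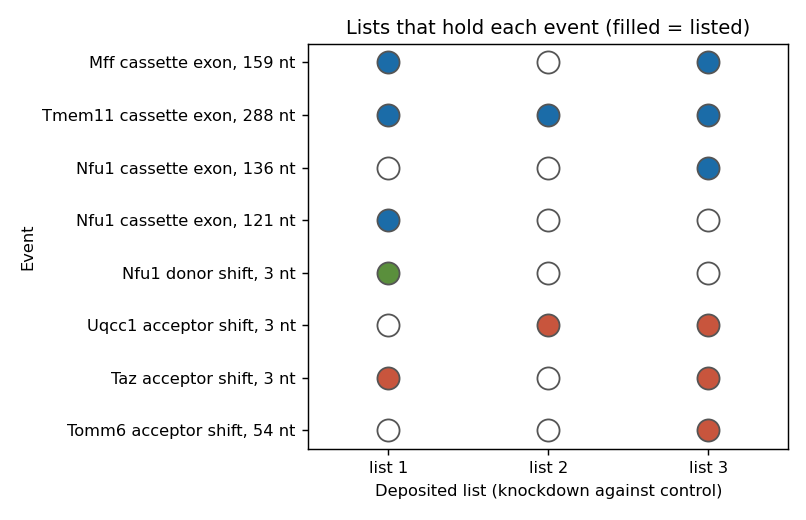
The 8 events (rows, with type and length) are set against the 3 deposited lists (columns), each a comparison of SFPQ knockdown with control samples. Filled circles mark listed events (blue for cassette exons, red for acceptor shifts, green for donor shifts) and open circles events that were not listed, and only the Tmem11 row is filled in all 3 columns.

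Mff, a tail-anchored receptor of the outer mitochondrial membrane, recruits Dnm1l to the sites of fission. Its gene (ENSMUSG00000026150.14) lies on chromosome 1 from 82724890 to 82752394 (mm10, plus strand) and has 16 annotated transcripts. The listed event was a cassette exon of 159 nt, chr1:82741818-82741976, which is exon 6 of 9 in Mff-202 and wholly coding. It was in lists 1 and 3. The exon is printed because its acceptor scored lowest of the 7 event acceptors that could be scored, with 25 intron bases in lower case and the exon in capitals, as the annotated GENCODE M21 transcripts give them.

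Mff cassette exon: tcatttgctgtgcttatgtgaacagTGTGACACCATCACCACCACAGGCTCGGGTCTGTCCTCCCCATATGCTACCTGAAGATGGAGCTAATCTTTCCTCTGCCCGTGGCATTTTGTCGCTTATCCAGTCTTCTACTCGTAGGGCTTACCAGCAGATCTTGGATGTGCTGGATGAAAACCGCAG

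Of the 16 transcripts, 3 held this exon and 6 skipped it. The exon covered codons 147 to 200 of the 291 codons of Mff-202. Without it the frame and the stop codon stayed the same, and 238 codons were left. The same held in each of the 6 transcripts whose frame could be followed, where the form with the exon had 271 to 316 codons and the form without it 218 to 263. The introns beside it measured 6310 nt upstream and 5106 nt downstream, while the medians over 433 listed cassette exons were 1939 and 2047 nt.

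Tmem11 is a mitochondrial membrane protein that takes part in the shape of the cristae. Its gene (ENSMUSG00000043284.12, minus strand) lies on chromosome 11 from 60864452 to 60879272 and has 3 annotated transcripts. The event in all 3 lists was a cassette exon of 288 nt, chr11:60875760-60876047, exon 2 of 3 in Tmem11-203. Transcripts with the exon numbered 2, and 1 transcript skipped it. The exon changed where translation starts in the annotation. In Tmem11-203 the start codon lay in this exon, with 274 nt of it in the 5′UTR and only its last 14 nt coding. In Tmem11-201, which lacks the exon, the start codon lay in exon 1. Both spliced forms are printed across the junction, first from the start codon of the exon with the bases of the exon in capitals, then with the last 30 bases of exon 1 in capitals, and both run on into the same last exon.

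Tmem11 with the exon: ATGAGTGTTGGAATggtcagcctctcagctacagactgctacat

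Tmem11 without the exon: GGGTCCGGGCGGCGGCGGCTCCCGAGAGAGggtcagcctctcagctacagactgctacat

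The frame entered the last exon at the same phase in both forms, and 171 whole codons were common to both. They differed at their start, where exon 1 gave 56 coding bases and the cassette exon 14. The annotated proteins accordingly had 176 codons with the exon and 190 codons without it. The start codon of exon 1 is also present in the mRNA of Tmem11-203. Read from that codon, the form with the exon met a stop after 31 codons, 248 nt before the last exon junction. Which of the start codons is used in P19 cells was not tested. Of 359 listed cassette exons that changed the coding sequence, 9 (2.51%) held the start codon of the frame followed. For Tmem11 the longest frame was followed, which starts in exon 1, and it is therefore not among the 9.

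Nfu1 carries iron-sulfur clusters to target proteins in the mitochondrial matrix, among them the enzyme that makes lipoic acid. Its gene (ENSMUSG00000029993.16, plus strand) lies on chromosome 6 from 87009236 to 87028461 with 9 annotated transcripts, and it held 3 of the 8 events. The first, in list 3, was a cassette exon of 136 nt, chr6:87015566-87015701, exon 3 of 8 in Nfu1-201. The second, in list 1, was a cassette exon of 121 nt, chr6:87020719-87020839, exon 5 of 8 in Nfu1-202. The third, also in list 1, was a donor shift of 3 nt at the end of that exon, chr6:87020840-87020842. The exons are printed as the parts whose loss moved the stop codon, exon 3 in capitals with its first 10 intron bases in lower case, and exon 5 in lower case with the 3 bases of the donor shift in capitals.

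Nfu1 exon 3: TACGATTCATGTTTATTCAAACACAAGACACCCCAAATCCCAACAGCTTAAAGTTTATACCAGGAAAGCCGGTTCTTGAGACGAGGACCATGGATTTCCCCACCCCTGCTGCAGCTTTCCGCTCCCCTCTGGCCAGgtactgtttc

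Nfu1 exon 5: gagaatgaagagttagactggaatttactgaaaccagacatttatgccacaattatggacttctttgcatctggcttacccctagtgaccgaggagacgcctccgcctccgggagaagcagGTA

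Neither Nfu1 exon has a length divisible by 3, and no annotated transcript skipped either of them. Exon 3 was held by 5 transcripts. Exon 5 was held in its form of 121 nt by 1 transcript, and 4 transcripts had the donor that adds GTA. Without exon 3 the frame ended after 61 codons, where Nfu1-201 has 256, and the stop lay 401 nt before the last exon junction. Without exon 5 it ended after 131 codons, where Nfu1-202 has 255, and the stop lay 203 nt before that junction. The 2 losses thus gave early stops at different places. The donor shift kept the frame and added 1 codon, 256 with the 3 bases and 255 without them. The donor shift and the exon of 121 nt touch each other and came from the same list, so they may not be separate observations.

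The Nfu1 events share sequence with a processed pseudogene on chromosome 15, Gm7859. Of 32 words of 25 bases taken every 5 bases over exon 3 and its edges in the mRNA, 15 were also in Gm7859, as were 18 of 29 over exon 5. Over the donor shift it was only 1 of 6 words. Reads from that copy and from Nfu1 mRNA can be alike, and the Nfu1 events are uncertain for that reason. The part of the pseudogene in these listings was not tested. The Mff, Tmem11, Uqcc1 and Taz events shared no such word with the annotated transcripts of another gene. Sequence outside annotated transcripts was not searched, and only 6 words each were searched for Uqcc1 and Taz.

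**Figure D2:**
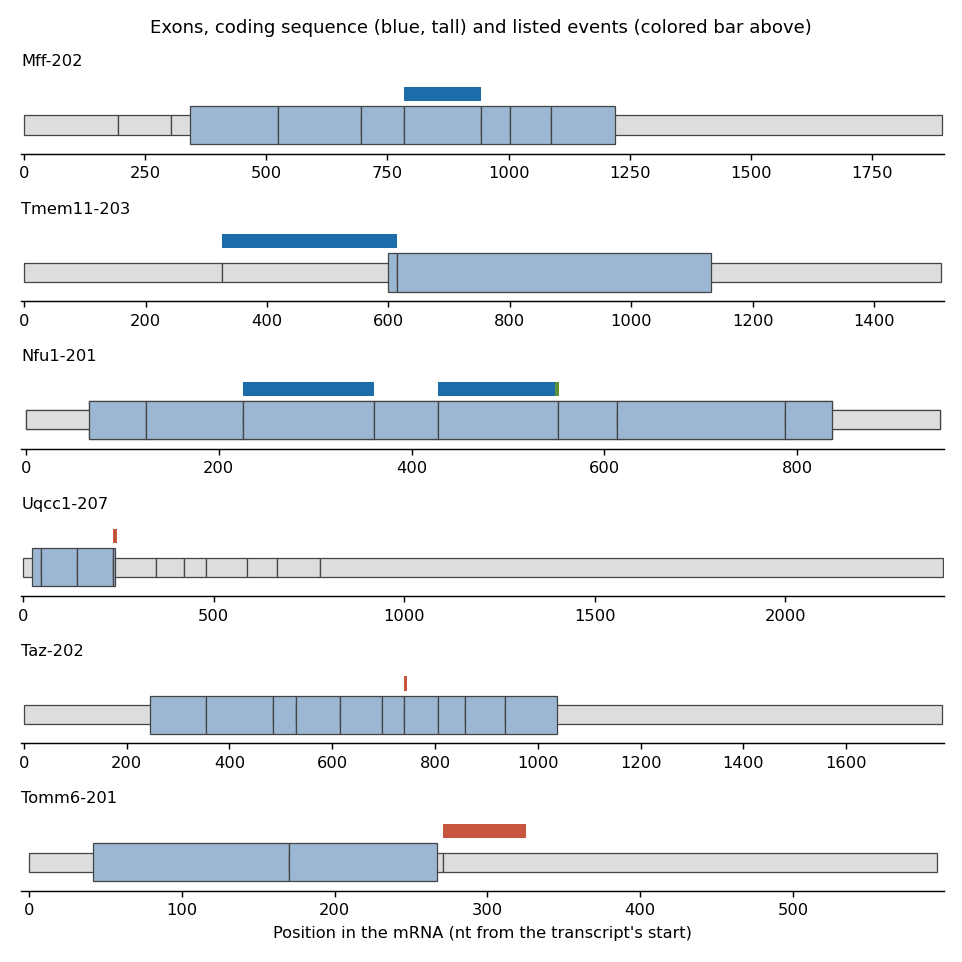
For 1 annotated transcript of each gene, exons are drawn as boxes along the mRNA (nt from the transcript's start), with coding sequence tall and blue and untranslated sequence low and gray. Bars above mark the listed events (blue for cassette exons, red for acceptor shifts, green for the donor shift), and the Tomm6 event alone lies wholly after the coding sequence of a protein-coding transcript.

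Uqcc1 is an assembly factor of respiratory complex III that is needed for the synthesis of cytochrome b. Its gene (ENSMUSG00000005882.18, minus strand) lies on chromosome 2 from 155846894 to 155930310 with 19 annotated transcripts. The event, in lists 2 and 3, was an acceptor shift of 3 nt, chr2:155910465-155910467, at the start of exon 4 of 10 in Uqcc1-207. Taz, or tafazzin, is the transacylase that remodels cardiolipin, and in humans its loss causes Barth syndrome. Its gene (ENSMUSG00000009995.17, plus strand) lies on chromosome X from 74281912 to 74290151 with 22 annotated transcripts. The event, in lists 1 and 3, was also an acceptor shift of 3 nt, chrX:74288448-74288450, at the start of exon 7 of 10 in Taz-202. Tandem acceptors of this kind hold AG at a spacing of 3 bases, and the spliceosome can cut after either AG. Both acceptors are printed because they had the same tandem site, with 25 intron bases and 25 exon bases in lower case and the 3 bases between the alternative cuts in capitals.

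Uqcc1 acceptor: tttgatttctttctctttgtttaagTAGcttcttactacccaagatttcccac

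Taz acceptor: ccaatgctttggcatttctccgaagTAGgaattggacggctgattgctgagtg

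In both genes the site read aagTAG, so the bases added by the upstream cut were TAG. The effect on the message was not the same, because the 3 bases entered the reading frame at different phases. The mRNAs of the longer and the shorter form are printed in codon phase from their first base, with the added bases in capitals.

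Uqcc1 mRNA, longer form: aacacaagtaagTAGcttcttactacc

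Uqcc1 mRNA, shorter form: aacacaagtaagcttcttactacc

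Taz mRNA, longer form: cgcttcaaatgggTAGgaattggacgg

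Taz mRNA, shorter form: cgcttcaaatggggaattggacgg

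In Uqcc1 the added TAG stood in frame as a stop codon. The longer form ended after 71 codons, where the shorter form had 295 codons in Uqcc1-204, and the stop lay 540 nt before the last exon junction. The longer form was annotated in 1 transcript, Uqcc1-207, of the nonsense-mediated decay type, and the shorter form in 11. In the other transcripts whose frame could be followed, 3 in number beside Uqcc1-204 and Uqcc1-207, the shorter form had 120 to 269 codons and the longer form again 71. In Taz the same 3 bases fell 1 base into a codon and gave GTA followed by GGA, where the shorter form had GGA. The Taz forms shared their stop codon, with 263 codons in the longer form and 262 in the shorter form of Taz-202. The longer Taz form was annotated in 4 transcripts and the shorter form in 7.

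Among all lists 36 acceptor shifts had a length of 3 nt. The bases between the cuts were known for 35 of them and ended in AG in 34. They were CAG in 27 and TAG in 5, of which Uqcc1 and Taz were 2. Of the 27 shifts of 3 nt that changed the coding sequence, Uqcc1 alone moved the stop codon (3.70%). Uqcc1 and Taz each stood in 2 lists, and 7 of the 36 (19.4%) did so or stood in all 3.

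Tomm6 is a small subunit of the translocase of the outer membrane, the entry gate for imported proteins. Its gene (ENSMUSG00000033475.15, minus strand) lies on chromosome 17 from 47686646 to 47688386 and has 3 annotated transcripts. The event, in list 3, was an acceptor shift of 54 nt, chr17:47687009-47687062, at the start of exon 3 of 3 in Tomm6-201. It lay in the 3′UTR. The longer and the shorter form were annotated in 1 transcript each. Both forms had 74 codons, and the stop lay 4 nt before the last exon junction, so the coding sequence was the same. The gene Gm21981, on the same strand, spans this locus but has no exon over the event, and 1 of 16 words of the event and its edges was found in its transcripts.

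Set side by side, the events changed the coding sequence in 7 of 8 cases (87.5%, 95% Wilson interval 52.9% to 97.8%), against 491 of 605 listed events whose frame could be followed (81.2%). The interval treats the events as independent, though they were picked from the lists and 3 of the 8 lie in Nfu1. Nothing is read from this share or its interval. Whole codons with the same stop were added or lost in Mff, in Taz and by the Nfu1 donor shift. The stop moved in Uqcc1 and with both Nfu1 cassette exons, and in Tmem11 it moved only when the frame was read from exon 1. Counted that way, 3 of the 4 cassette exons moved the stop (75%, interval 30.1% to 95.4%), against 134 of 359 listed cassette exons that changed the coding sequence (37.3%). Both Nfu1 exons lie in 1 gene, so the 4 exons are not independent, and the class of Tmem11 depends on the start codon. Nothing is read from the difference, which was not tested.

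**Figure D3:**
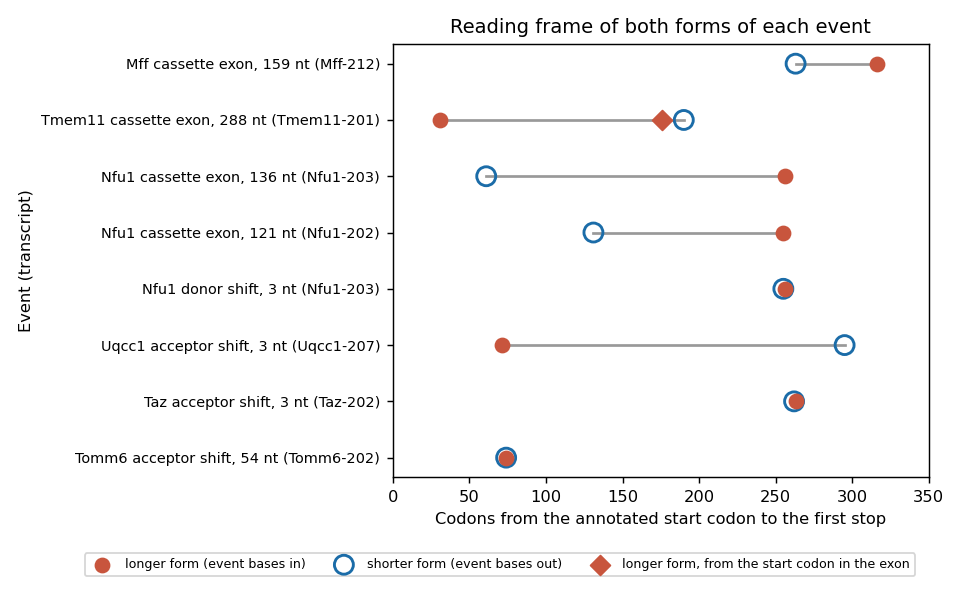
Codons from the start codon to the first stop (horizontal axis) are plotted for the longer form (filled circles) and the shorter form (open circles) of each of the 8 events, in the transcript with the longest frame. The diamond gives Tmem11 read from the start codon inside the exon (176 codons), and the forms stand far apart for both Nfu1 cassette exons, Uqcc1 and Tmem11 read from exon 1.

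The 4 cassette exons were long for the lists. The Tmem11 exon of 288 nt was exceeded by 10 of 439 listed cassette exons and the Mff exon of 159 nt by 43, while 71 were longer than the Nfu1 exon of 136 nt and 101 longer than that of 121 nt. The median was 81 nt. A length divisible by 3 was found for 2 of the 4 (50%, Wilson interval 15% to 85%), against 270 of 439 (61.5%). The exons without such a length both lie in Nfu1, and nothing is read from this share or its interval. The Tomm6 shift of 54 nt was exceeded by 14 of 97 acceptor shifts, whose median was 10 nt. The Nfu1 donor shift of 3 nt was short, as 6 of 93 donor shifts had that length (6.45%) and the median was 24 nt. By type, cassette exons were 4 of the 8 events, against 439 of 643 (68.3%), and acceptor shifts were 3 of 8, against 97 of 643 (15.1%). An annotated transcript that skips the exon existed for 2 of the 4 cassette exons, those of Mff and Tmem11, against 364 of 433 (84.1%).

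**Figure D4:**
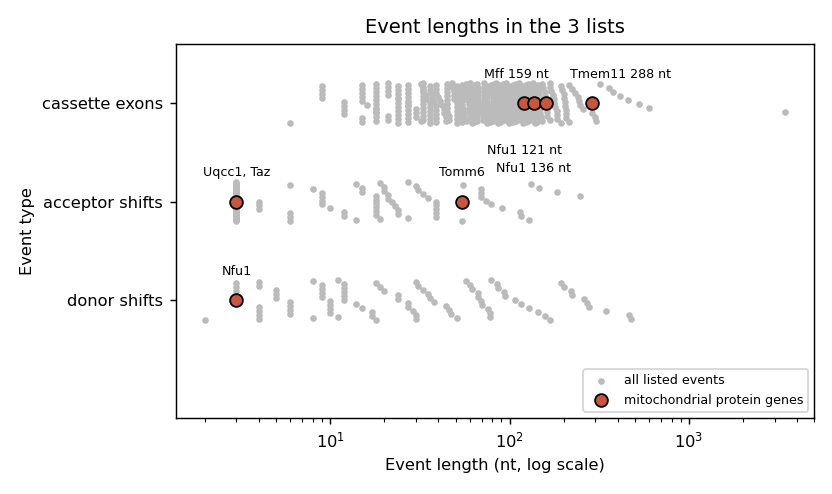
Lengths in nt (log scale) of all listed cassette exons, acceptor shifts and donor shifts are shown as gray points, 1 per distinct event with vertical scatter for display only, and those of the mitochondrial protein genes as red points. The cassette exons of these genes lie above the median of 81 nt, and the Uqcc1, Taz and Nfu1 shifts lie at 3 nt.

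The bases at the splice sites were scored against position frequencies of annotated sites, as a log2 odds score over 20 intron and 3 exon bases of an acceptor. Intron bases were known only where another annotated transcript covers them, which allowed 7 acceptors of these events to be set against 16370 acceptors of internal coding exons. The 16370 were limited in the same way, beside 166070 internal coding exons in all. A percentile thus ranks a site among the scored part only. The Mff acceptor scored 2.27, at percentile 3.51, and 9 of the 17 bases before its last 3 intron bases were pyrimidines, against a median of 13. In the same gene 3 other acceptors lay at percentiles 1.82 to 25.9, so a low score was not particular to this exon. In Uqcc1 the upstream cut scored 4.95 (percentile 17.2) with 16 pyrimidines, and the downstream cut 3.83 (percentile 8.81) with 13. In Taz the order was the opposite, as the upstream cut scored 4.26 (percentile 11.2) with 12 pyrimidines and the downstream cut 5.64 (percentile 25.1) with 10. The other 7 Taz acceptors that could be scored ranged from percentile 3.18 to 97.6, with a median of 48.6. The Tomm6 cuts scored higher, 7.78 upstream (percentile 61.3) and 9.08 downstream (percentile 83.8). The donor of Nfu1 exon 3 scored 5.92 (percentile 44.5 of 18558 donors).

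**Figure D5:**
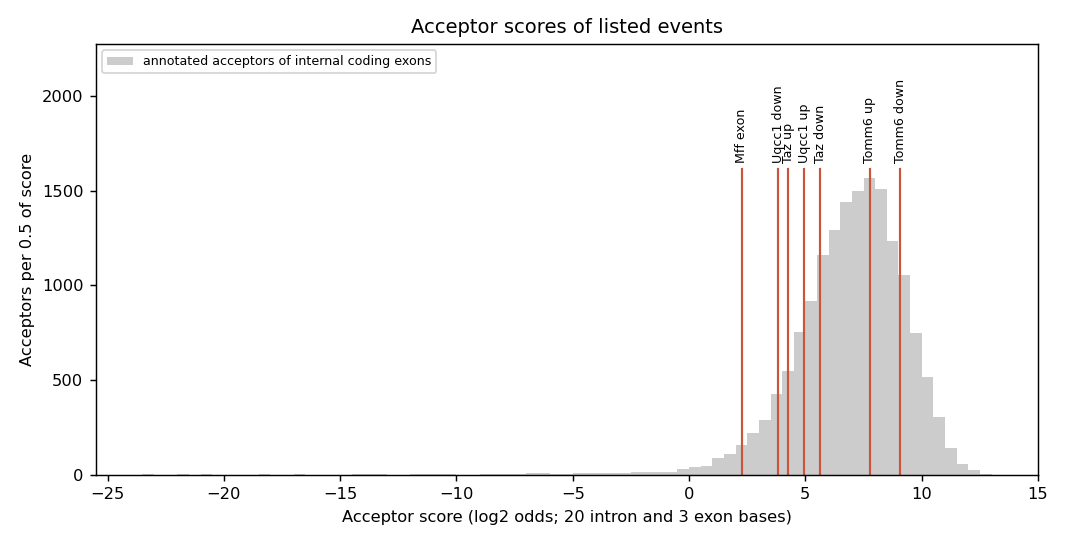
Acceptor scores (log2 odds, horizontal axis) of 16370 annotated acceptors of internal coding exons are drawn as gray bars (number per 0.5 of score). These are the acceptors whose intron bases were known. Red lines mark the Mff exon and the upstream (up) and downstream (down) cuts of the Uqcc1, Taz and Tomm6 shifts, and the Mff line, at 2.27, is the lowest of the 7.

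The tandem site itself was uncommon among the acceptors that could be scored, which are only a part of the annotation. The letters NAG were the first 3 exon bases of 966 of the 16370 acceptors (5.90%), and NAGNAG were the last 6 intron bases of 243 (1.48%). AAGTAG, the site of Uqcc1 and Taz, stood at either place in 14 (0.0855%), searched on the transcribed strand only. These shares describe letters and not the use of a site. Nothing is read from their size, because an acceptor shift of 3 nt as a rule brings a tandem site. The letters AAGTAG were themselves taken from the Uqcc1 and Taz events.

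Words that the study names for Sfpq, most of them with a UGU core, were counted on the transcribed strand (the word CUGU, the word CUGA, which holds no UGU, and the word UGUA after any base but C, with CUGUA counted within CUGU). The Tmem11 exon held 8 of them, the Mff exon 2, the Nfu1 exon of 121 nt 1 and the Nfu1 exon of 136 nt 0. UGU alone occurred 8 times in the Tmem11 exon, 4 times in the Mff exon, 0 times in the Nfu1 exon of 121 nt and 1 time in that of 136 nt, so the 1 word of the 121-nt exon was CUGA. A word was present in 3 of the 4 exons (75%), against 251 of 433 listed cassette exons (58.0%) and 78.2% of 166070 internal coding exons, which differ in length. Per 100 nt the 4 exons held 1.56 words, the listed cassette exons 1.32 and the internal coding exons 1.35. A word is not a binding site, and introns were not searched.

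The genes were last set beside others of their pathways, in 6 lists with 128 genes found in the annotation. These lists cover only the chosen pathways and leave out other genes for mitochondrial proteins with listed events, among them Cox18, Tmem70 and Ndufs7. Events stood in 9 of the 128 (7.03%), a share that includes the 6 genes picked for being listed. Without them it was 3 of 122 (2.46%), near the 2.81% of all multi-exon protein-coding genes, and nothing is read from the small counts of the single lists. Among genes for fission, fusion and transport of mitochondria 2 of 26 had an event, Mff and its partner Dnm1l, the dynamin that constricts mitochondria. Dnm1l had a cassette exon of 33 nt in list 1, chr16:16318445-16318477, exon 16 of 20 in Dnm1l-203. Its exon is printed in capitals as that of the protein Mff binds.

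Dnm1l exon: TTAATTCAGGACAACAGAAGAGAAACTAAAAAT

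Of the Dnm1l transcripts 3 held the exon and 2 skipped it, and the frame was kept, with 723 codons with the exon and 712 without it in Dnm1l-202. Opa1, the dynamin of inner membrane fusion, had 0 listed events. In the import list 3 of 37 genes had an event, Tomm6, Tomm40 and Timm9. Tomm40, the channel of the outer membrane, had a retained intron of 98 nt in list 2, chr7:19715260-19715357, in the 5′UTR. Timm9, a small chaperone of the space between the membranes, had a cassette exon of 98 nt in list 2, chr12:71133900-71133997, which did not match an annotated exon at both edges. Of the other lists, Tmem11 was the 1 gene of 17 for cristae, Nfu1 the 1 of 22 for iron-sulfur clusters, Uqcc1 the 1 of 15 for complex III and Taz the 1 of 11 for cardiolipin. Each of the 3 genes beyond the chosen 6 was in 1 list only.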

How the data were processed

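RNA of 3 SFPQ knockdown and 3 control samples of P19 cells was sequenced as paired ends. The labels name the NEBNext Ultra Directional kit and the study's methods the TruSeq Stranded mRNA kit. Trimming and alignment tools (cutadapt, Bowtie2 and STAR) and the build mm10 come from the submitters' processing notes, and SpliceTrap from the methods. The authors deposited positions and event types of each list. The threshold for listing and the matching of controls to lists are not given in the sources used here. Repeated lines (5, 4 and 5 in lists 1, 2 and 3) were counted once, and 1 line with an unreadable start was left out. With 1 added to each start, 622 of 643 events (96.7%) matched GENCODE M21 edges exactly. The 8 events had to match to be counted, and their number was also 8 with no edge match asked for. Reading frames were followed in transcripts with complete coding sequence, with the event put in or taken out. The matching and codon counts were tested on simulated transcripts with cassette exons only. Acceptor shifts, donor shifts, retained introns and distances from a stop to the last junction were not tested in this way. No test was run. The members and gene lists were chosen with earlier results of these data known. All 6 genes and every other gene of the pathway lists with an event were named by rule, with Opa1, Dnm1l and Sfpq. Intervals were computed with scipy 1.17.1 and numpy 2.4.6, and plots drawn with matplotlib 3.10.9, under Python 3.11.15.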

Additional observations from a re-analysis of the deposited data

How the results depend on the processing

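No paired analysis was possible because the lists carry no values per sample and the counts come from no test. Leaving out each list in turn gave 1 to 3 events in more than 1 list (4 with all lists), 6 to 8 events in all, 50% to 66.7% of cassette exons with a length divisible by 3, and 7 to 8 genes of the pathway lists with an event. Of those 9 genes, 5 stood in 2 or more lists, Nfu1 by different events, and 5 had a cassette exon. A length divisible by 3 was found for 33.3% (1 of 3) of the cassette exons wholly within coding sequence. Over all event types it was 75% (6 of 8). Matching to protein-coding transcripts alone left 7 events, as the longer Uqcc1 form is annotated only in a transcript of the decay type. The median acceptor percentile of the 7 sites was 17.2 against the scored acceptors of coding exons and 18.8 against those of all internal exons. The sites are not independent, as the Uqcc1, Taz and Tomm6 shifts gave 2 each. The Tomm6 sites open exon 3 of 3 in Tomm6-201, a last exon, and were ranked against internal exons. Word counts in 250 or 100 intron bases beside the exons were not run, because no genome sequence was used. Depth, inclusion levels and direction are unknown, so no event can be ranked by size or certainty.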

Other observations

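Other genes for mitochondrial proteins had acceptor shifts too. Cox18 and Tmem70 were chosen from them after their values were seen, and they are not the full set. Among others, acceptor shifts stood in Foxred1 (18 nt, list 3), Mtch2 (27 nt, list 1) and Cox6b2 (31 nt, list 2). Dnlz had one of 4 nt in lists 1 and 3, whose edges matched the annotation only in part. Cox18, an insertase for a subunit of cytochrome c oxidase, had a shift of 3 nt (CAG) in list 1 that kept the frame, with 332 codons in the longer form and 331 in the shorter form. It had another of 4 nt in lists 1 and 2 that moved the stop codon. Tmem70, an assembly factor of ATP synthase, had a shift of 3 nt (CAG) in list 3, with 254 codons in the longer form and 253 in the shorter form. The other TAG shifts of 3 nt lay in Zkscan3, Nr6a1 and Elavl2, each in 1 list. Elavl2 had 389 codons in the longer form and 388 in the shorter form, so that among the TAG shifts that were followed in coding sequence the stop in frame was found in Uqcc1 and not in Taz or Elavl2.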
